A study of Rattus norvegicus with 12 samples.

Results

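The genes described here encode the proteasome, the large protease that degrades proteins tagged with ubiquitin, in the liver of rats fed maple syrup or a mix of sugars. They were chosen by symbol: every gene whose name begins with Psma, Psmb, Psmc or Psmd followed by a digit, without Psmb8, Psmb9 and Psmb10, the catalytic subunits of the immunoproteasome. Of 14217 named genes on the array, 34 were members: 13 of the core particle (7 Psma and 6 Psmb), 7 Psmc and 14 Psmd. Psmb6, a catalytic subunit of the core, was not among them, as its probe set carries more than 1 symbol. The label of constitutive subunits holds for 30 of the 34: Psmd5, Psmd9 and Psmd10 encode chaperones that help to assemble the base and leave the finished particle, and Psmc3ip encodes a factor of meiotic recombination that was named for binding an ATPase subunit. They are kept because the symbol rule takes them, and the values without them are given beside the main ones.

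Each of the 12 Affymetrix arrays held liver RNA of 1 male Wistar rat, aged 5 weeks according to the labels. All animals were first kept for 4 days on the purified AIN93G diet, then received for 11 days the same diet with 20% maple syrup (6 arrays) or with 20% sugar mix, whose sugars resemble those of maple syrup (6 arrays), and were fasted for 16 hours before dissection. The labels give 7 rats fed maple syrup and 8 fed sugar mix, and the animals beyond the 6 arrays of each diet were not analysed here. Each array is labelled a biological replicate, and every value comes from whole liver, so that fewer cells of a type and less RNA per cell cannot be told apart. The 9 measured markers of hepatocytes, albumin (Alb) among them, had mean scores between 12.32 and 15.21, against array medians of 7.37.

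The proteasome is a barrel of stacked rings, the core particle, capped by a regulatory particle. The outer rings of the core are made of Psma (alpha) subunits, whose tails form the gate, and the inner rings of Psmb (beta) subunits, of which Psmb5, Psmb6 and Psmb7 carry the protein-cutting sites. The base of the cap holds a ring of Psmc ATPases that unfold substrates and push them through the gate, and the lid, made of Psmd subunits, removes the ubiquitin chain. Subunits are needed in fixed proportions, and their genes are known to be driven together by the transcription factor Nfe2l1 when proteasome capacity is short. In liver the proteasome clears short-lived regulators and damaged proteins, and fasting and feeding are known to change protein breakdown.

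The deposited values carry no unit that allows a fold change. Their levels resemble log2 intensities, but they hardly differ between animals: the standard deviation (SD) of a member over the 12 animals had a median of 1.14e-05 and ran from 1.29e-06 (Psmc3ip) to 6.37e-05 (Psmd13), at mean scores between 7.53 and 12.6. The smallest range of a member still spanned 473 steps of the last deposited digit. The values of an animal are therefore given as its deviation from the gene's mean over the 12 animals, in units of the gene's SD, and the size of a diet difference as Hedges' g, the maple syrup mean minus the sugar mix mean in units of the SD between animals of a diet. How many of the 36 pairs of 1 animal from each diet had the maple syrup animal higher is given beside g. This count does not change with a monotone scale applied to a gene alike in all animals. It can change when each array is rescaled on its own. Array medians lay between 7.36619 and 7.36632, a gap larger than the SD of each of the 34 members. The number of arrays limits the precision.

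Promoters of 4 members are shown because the genes moved together between animals, as described further on: Psma2 and Psmd4 followed the other members closely, Psmb5 holds the chymotrypsin-like site and a match to the antioxidant response element, and Psmd10 did not follow the others. The sequences are from RefSeq (build GRCr8), 5′ to 3′ along the gene, from 250 bases before the annotated start to 50 after it: Psma2 at chr17:55260392-55260691, Psmb5 at chr15:32047330-32047629, Psmd4 at chr2:185297152-185297451 and Psmd10 at chrX:109453556-109453855, all 4 on the minus strand. Capitals mark matches on either strand to CCAAT (read as ATTGG on the other strand) and to TGACNNNGC, the core of the antioxidant response element that Nfe2l1 and Nfe2l2 bind.
Psma2: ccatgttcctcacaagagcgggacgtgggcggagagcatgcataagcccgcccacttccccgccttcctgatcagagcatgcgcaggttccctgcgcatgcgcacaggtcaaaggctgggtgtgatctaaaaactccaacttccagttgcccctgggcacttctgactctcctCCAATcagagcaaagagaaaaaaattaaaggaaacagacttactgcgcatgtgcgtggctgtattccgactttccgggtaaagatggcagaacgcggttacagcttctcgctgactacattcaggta
Psmb5: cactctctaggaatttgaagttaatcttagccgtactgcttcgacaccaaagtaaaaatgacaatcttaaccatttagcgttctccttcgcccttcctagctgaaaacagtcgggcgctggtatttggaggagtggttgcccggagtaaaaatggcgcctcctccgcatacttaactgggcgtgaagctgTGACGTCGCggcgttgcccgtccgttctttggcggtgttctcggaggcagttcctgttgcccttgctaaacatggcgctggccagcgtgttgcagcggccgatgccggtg
Psmd4: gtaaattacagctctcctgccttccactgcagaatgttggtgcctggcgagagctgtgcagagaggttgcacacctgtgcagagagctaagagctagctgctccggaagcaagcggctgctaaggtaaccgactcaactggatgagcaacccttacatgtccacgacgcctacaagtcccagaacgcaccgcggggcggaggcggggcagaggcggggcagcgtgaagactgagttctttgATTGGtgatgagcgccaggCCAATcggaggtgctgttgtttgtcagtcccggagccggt
Psmd10: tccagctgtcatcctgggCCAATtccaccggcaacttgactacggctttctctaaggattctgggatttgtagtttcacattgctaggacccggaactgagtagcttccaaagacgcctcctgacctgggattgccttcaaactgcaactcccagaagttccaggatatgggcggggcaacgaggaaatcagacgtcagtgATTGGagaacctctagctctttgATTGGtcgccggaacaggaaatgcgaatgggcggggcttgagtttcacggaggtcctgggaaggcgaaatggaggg

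A promoter of this length was matched for 30 of the 34 members. TGACNNNGC was found in 6 of the 30 (20% against 12.1% of all 33469 promoters): Psma3, Psmb2, Psmb5, Psmd1, Psmd3 and Psmd9, so in 3 of 12 core genes, 0 of 7 Psmc genes and 3 of 11 Psmd genes. CCAAT was found in 17 of 30 (56.7% against 37.5%), with 9 of 12 in the core, 3 of 7 in Psmc and 5 of 11 in Psmd. The GC box GGGCGG was found in 21 of 30 (70% against 33.1%), and CCGGAAG, the core of a site for ETS factors, in 11 of 30 (36.7% against 8.75%). The nuclear respiratory factor site was found in 5 of 30 (16.7% against 4.25%): Psma2, Psma3, Psma4, Psma5 and Psmc5. Both strands were searched for each motif, and these shares are descriptions of letters, not of binding. The 33469 promoters are more than the 14217 named genes on the array, so they are not a matched background for the members. Whether other genes measured in liver have similar shares was not tested. Matches of different motifs can overlap, as in Psmb2, where CCAAT and TGACNNNGC share a base. The shown promoter of Psmd10 holds 3 matches to CCAAT, and that of Psmd4, the member closest to the others in its values, holds 2.

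Between the diets, most proteasome genes had a lower mean with maple syrup, but no gene passed the test. A lower mean was found in 30 of 34 members (88.2%, where 52.9% of all 14217 genes were lower), with a median g of -0.43 against -0.04 over all genes. In limma with Benjamini-Hochberg adjustment over all genes, 0 of 34 members passed an adjusted p of 0.05, where 0% of all genes did, and the adjusted p was 0.9999 for each. Before adjustment, 0 of 34 had p below 0.05, against 4.33% of all genes, 2.24% in the lower direction. The direction depends on how arrays are put on one scale. The count of lower members was 11 of 34 after median centring of the arrays (13.6% of all genes). The subtracted array medians differ by more than the SD of each member. After quantile normalization the count was 6 of the 20 members that still varied (61.4% of all genes), and these kept at most 6 distinct values. The count stayed at 30 of 34 when arrays were centred on the mean of all genes in SD units (50.7% of all genes). This setting was added after seeing the data. It could change little, as the median of all genes already lay between -0.10 and 0.17 SD in each animal. The animals of the diets overlapped for all 34 members (they did not for 0.0985% of all genes), with 8 to 26 of 36 pairs higher with maple syrup, and no 95% interval of g excluded 0.

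By position in the particle, 13 of 13 core genes were lower with maple syrup (median g = -0.54), against 6 of 7 Psmc genes (median g = -0.45) and 11 of 14 Psmd genes (median g = -0.38). After median centring the counts were 6, 2 and 3, and after quantile normalization 2 of 6, 2 of 4 and 2 of 10. Directions from here on are those on the deposited scale. Without the 4 genes that encode no structural subunit, the counts were 6 of 6 Psmc genes (median g = -0.49) and 9 of 11 Psmd genes (median g = -0.41). The exceptions were Psmc3ip, Psmd7, Psmd10 and Psmd11, whose g ran from 0.03 to 0.60. Whether the groups differ from each other was not tested, and with single arrays left out the core median ran from -0.95 to -0.26, the Psmc median from -0.78 to -0.26 and the Psmd median from -0.58 to -0.23. The extremes came without sugar mix replicates 6 and 2 in the core and Psmc groups, and without maple syrup replicate 1 and sugar mix replicate 3 in the Psmd group. Over all members the median g of -0.43 became -0.26 without sugar mix replicate 2, -0.72 without sugar mix replicate 6 and -0.66 without maple syrup replicate 1. The members of a group are parts of 1 complex and vary together, so a count of them is not a count of independent findings.

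**Figure D1:**
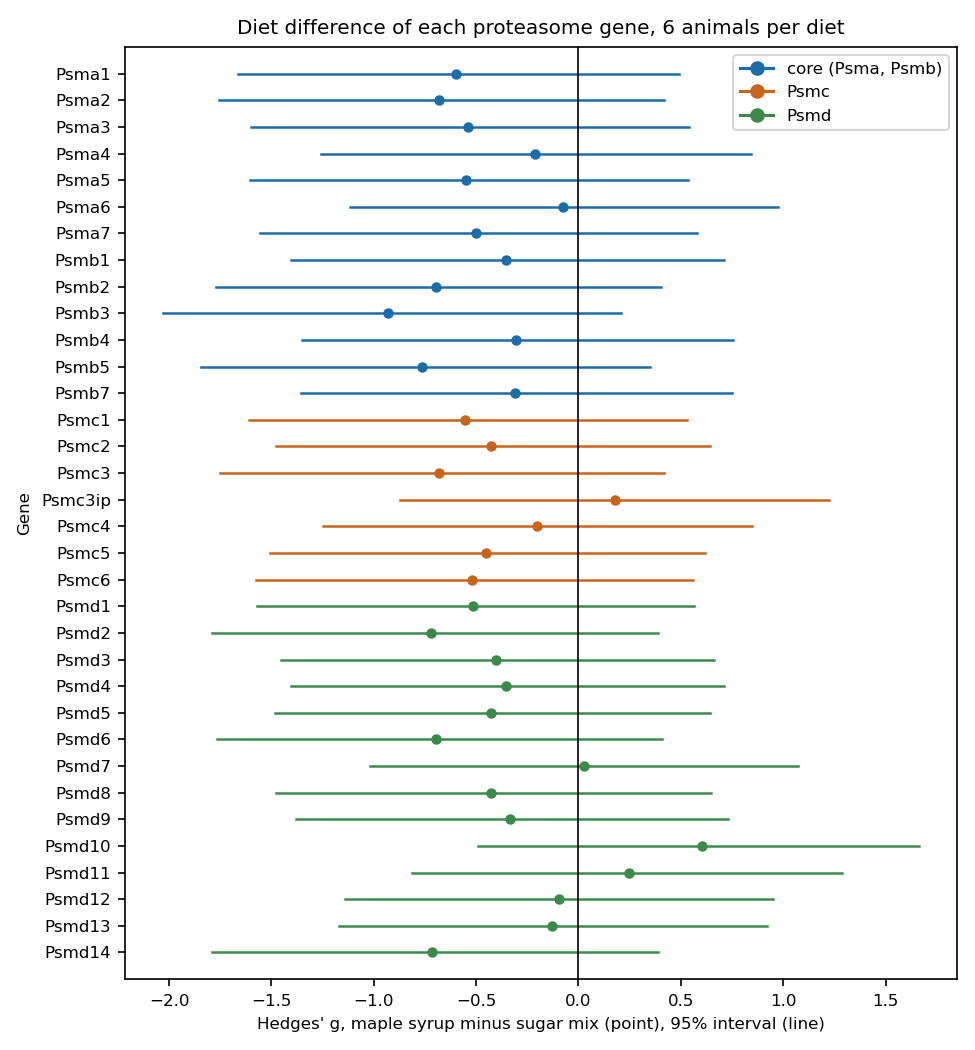
Hedges' g (x axis, maple syrup minus sugar mix, in SDs between animals; point) and its 95% interval (line) for each of the 34 genes (y axis), coloured by group, 6 animals per diet. Points lie left of 0 for 30 genes on the deposited scale (11 after median centring of the arrays, 6 of 20 after quantile normalization), and all 34 intervals include 0.

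In the alpha ring, which forms the gate of the core, all 7 genes had a lower mean with maple syrup on the deposited scale, and g ran from -0.68 to -0.07. Psma2 stood at -1.31, 0.68 and 1.97 with sugar mix and -1.12, -0.50 and 0.98 with maple syrup, each time as the lowest, median and highest animal. Its g was the lowest of the ring, -0.68 (95% interval -1.75 to 0.42), with 14 of 36 pairs higher. Of the maple syrup animals only replicate 1 was above the gene's mean. Psma1 stood at -1.30, 0.37 and 1.74 with sugar mix and -1.08, -0.70 and 1.53 with maple syrup, with g = -0.60 (95% interval -1.66 to 0.49) and 10 of 36 pairs. Its maple syrup median lay below 0 and its highest maple syrup animal was again replicate 1, above each sugar mix animal except replicate 2. Psma5 stood at -0.95, -0.01 and 2.09 with sugar mix and -1.07, -0.68 and 1.21 with maple syrup, with g = -0.55 (95% interval -1.61 to 0.54), and its highest value, in sugar mix replicate 2, was more than 1 SD above each other sugar mix animal. Psma3 stood at -1.84, 0.53 and 1.66 with sugar mix and -1.62, 0.05 and 0.37 with maple syrup, with g = -0.54 (95% interval -1.60 to 0.54) and 9 of 36 pairs. Its maple syrup animals lay near the mean except replicates 3 and 6. Psma7 stood at -1.45, 0.52 and 1.64 with sugar mix and -1.42, -0.24 and 0.63 with maple syrup, with g = -0.50 (95% interval -1.55 to 0.58). Psma6, the member of the ring with the largest p, stood at -1.95, 0.06 and 1.64 with sugar mix and -1.46, 0.28 and 0.63 with maple syrup, and its g was -0.07 (95% interval -1.12 to 0.97), with 17 of 36 pairs, and the diets overlapped over the whole maple syrup range. Psma4 had g = -0.21.

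Among the beta subunits, the catalytic Psmb5, the site that most proteasome inhibitors block, stood at -1.27, 0.19 and 1.71 with sugar mix and -1.16, -0.66 and 0.47 with maple syrup. The medians differed by under 1 SD and the ranges overlapped: g = -0.76 (95% interval -1.84 to 0.35), 12 of 36 pairs. The 2 dimmer probe sets of Psmb5 gave g = -1.33 (95% interval -2.50 to -0.12) and -1.74 (95% interval -3.0 to -0.43), with 6 and 4 of 36 pairs higher. They are named after their values were seen. Their intervals exclude 0, while their mean scores of 6.99 and 6.70 lie below the array medians of 7.37, and their correlations with it within diets were 0.18 and 0.56. Psmb7, the trypsin-like subunit, stood at -1.12, 0.18 and 1.16 with sugar mix and -1.22, -0.41 and 1.75 with maple syrup, with g = -0.31 (95% interval -1.36 to 0.75) and 14 of 36 pairs. Its highest animal was maple syrup replicate 1, and its diets overlapped over nearly their whole range. Psmb3, which is not catalytic, had the lowest g of all 34 members. It stood at -0.92, 0.54 and 1.48 with sugar mix and -1.51, -0.84 and 1.05 with maple syrup, with g = -0.93 (95% interval -2.03 to 0.21) and 10 of 36 pairs, and an adjusted p of 0.9999 in limma. Psmb4 stood at -1.27, 0.21 and 1.35 with sugar mix and -1.23, -0.16 and 1.28 with maple syrup, with g = -0.30 (95% interval -1.35 to 0.76). The remaining beta genes, Psmb1 and Psmb2, had g = -0.35 and -0.70, and Psmb2 had the fewest pairs with maple syrup higher of any member, 8 of 36.

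The 6 ATPases of the base, whose ring unfolds the substrate, had g between -0.68 and -0.20, with 10 to 16 of 36 pairs higher. Psmc3 stood at -0.77, 0.42 and 1.23 with sugar mix and -1.22, -0.79 and 1.53 with maple syrup, with g = -0.68 (95% interval -1.75 to 0.42) and 10 of 36 pairs. All but maple syrup replicates 1 and 5 were below its mean in that diet. Psmc1 stood at -1.45, 0.29 and 1.75 with sugar mix and -1.30, -0.41 and 0.77 with maple syrup, with g = -0.55 (95% interval -1.61 to 0.53). Psmc5 stood at -1.16, 0.50 and 1.24 with sugar mix and -1.51, -0.40 and 1.09 with maple syrup, with g = -0.45 (95% interval -1.51 to 0.62). In both, maple syrup replicates 1 and 5 were above the mean and the other 4 below it. Psmc2 stood at -1.31, 0.10 and 1.88 with sugar mix and -1.04, -0.41 and 1.13 with maple syrup, with g = -0.43 (95% interval -1.48 to 0.64). Psmc6 stood at -1.09, 0.37 and 1.82 with sugar mix and -2.13, -0.14 and 0.83 with maple syrup, with g = -0.52 (95% interval -1.58 to 0.56); its lowest animal, maple syrup replicate 6, is not the lowest of the other ATPases. Psmc4 stood at -1.15, 0.40 and 1.19 with sugar mix and -1.55, -0.34 and 1.47 with maple syrup, with g = -0.20 (95% interval -1.25 to 0.85) and 16 of 36 pairs, the smallest difference of the 6. Psmc3ip, the gene of the rule that encodes no ATPase, stood at -1.43, 0.24 and 0.60 with sugar mix and -2.12, 0.15 and 1.54 with maple syrup, with g = 0.18 (95% interval -0.87 to 1.22). Its lowest animal was maple syrup replicate 1, in which each of the 6 ATPases was above its mean.

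In the Psmd group, the large base subunits Psmd1 and Psmd2, which dock ubiquitin-binding proteins, both had a lower mean with maple syrup on the deposited scale. Psmd1 stood at -0.59, 0.32 and 0.95 with sugar mix and -1.45, -0.81 and 1.86 with maple syrup, with g = -0.52 (95% interval -1.57 to 0.56). Psmd2 stood at -0.69, 0.58 and 0.81 with sugar mix and -1.53, -0.77 and 1.39 with maple syrup, with g = -0.72 (95% interval -1.79 to 0.39) and 12 of 36 pairs. In Psmd2 only 1 sugar mix animal was below the mean, while maple syrup animals were split between replicates 1 and 5 above it and the other 4 below. Psmd4, a receptor for ubiquitin chains, stood at -1.74, 0.52 and 1.69 with sugar mix and -1.0, -0.38 and 0.85 with maple syrup, with g = -0.36 (95% interval -1.40 to 0.71) and 14 of 36 pairs. Psmd14, the enzyme of the lid that cuts the ubiquitin chain from the substrate, stood at -0.97, 0.29 and 1.49 with sugar mix and -1.32, -0.84 and 1.34 with maple syrup, with g = -0.71 (95% interval -1.79 to 0.39) and 11 of 36 pairs; its other 2 probe sets gave g = -0.59 and -0.42. Its highest animals were sugar mix replicates 1 and 2 and maple syrup replicate 1. The lid subunits Psmd11, Psmd12 and Psmd7 showed no lower mean or only a slight one. Psmd11 stood at -1.52, -0.05 and 1.07 with sugar mix and -1.55, 0.18 and 2.01 with maple syrup, with g = 0.24 (95% interval -0.81 to 1.29), and its other probe sets gave g = -0.0020 and -0.28. Psmd12 stood at -2.26, 0.17 and 1.32 with sugar mix and -1.34, 0.04 and 0.94 with maple syrup, with g = -0.10 (95% interval -1.14 to 0.95). Psmd7, with the largest p of the Psmd genes, stood at -1.80, -0.26 and 1.65 with sugar mix and -1.0, 0.05 and 0.93 with maple syrup, with g = 0.03 (95% interval -1.02 to 1.07), and its other probe set gave 0.01. Of the further lid genes, g was -0.69 for Psmd6, -0.43 for Psmd8, -0.41 for Psmd3 and -0.13 for Psmd13. The chaperone genes had g = -0.43 (Psmd5), -0.33 (Psmd9) and 0.60 (Psmd10, gankyrin), the last with 26 of 36 pairs higher, the most of any member.

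Across animals, most proteasome genes were high or low together on the deposited scale, more than pairs of genes on these arrays in general. Within diets, that is after each diet's mean was removed, the Pearson correlation between 2 members over the 12 animals had a median of 0.64 over the 561 pairs, and 64.5% of pairs were above 0.5. Over all 101054436 pairs of genes the median was 0.01 and 7.41% were above 0.5. Genes as bright as the middle members (990 genes with a mean score between the quartiles of the members') gave a median of 0.01 and 9.96%. These correlations rest on 12 arrays that the members share, and they are given as a description without a p. The values over all pairs of genes were computed on the deposited scale alone. The median with Spearman's rho was 0.61, and it was 0.53 without sugar mix replicates 2 and 6, the animals farthest from the middle.

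Among themselves, the genes of the core had a median correlation of 0.72, those of the Psmc group 0.68 and those of the Psmd group 0.52. The order of core and Psmc turned with the mean of all probe sets (0.65 and 0.71), with Spearman's rho (0.63 and 0.64), after quantile normalization (-0.065 and 0.16) and without the genes that encode no structural subunit (0.72 and 0.80). Between groups the median was 0.67 for core and Psmc, 0.63 for core and Psmd, and 0.59 for Psmc and Psmd, so the correlation crossed the border between core and cap. Among the 30 structural subunits alone the median was 0.71, with 0.67 within the Psmd subunits. The 4 genes that encode no structural subunit had a median of 0.04 among each other. With single arrays left out the median over all members stayed between 0.58 and 0.67. After median centring it was 0.95, where each gene carries the same subtracted array median, and after quantile normalization, which left 14 of the 34 members constant and the other 20 with at most 6 distinct values, it was 0.

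**Figure D2:**
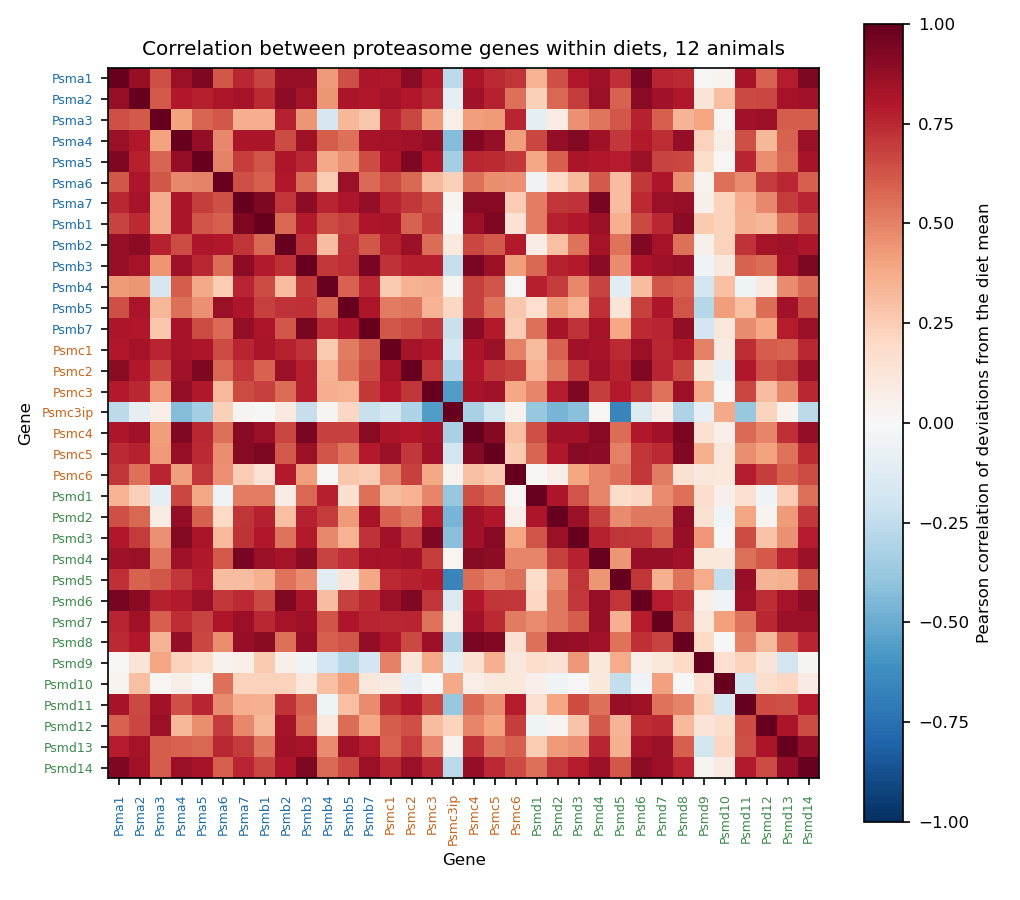
Pearson correlation between each pair of the 34 genes over 12 animals, after each diet's mean was removed (colour, from -1 in blue to 1 in red), with genes ordered by group on both axes. Most of the field is red on the deposited scale (median 0.64). The median was 0.95 after median centring of the arrays and 0 after quantile normalization. Psmc3ip, Psmd9 and Psmd10 stand out as pale or blue rows and columns.

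Set against the mean of the other 33 members, 20 of the 34 genes had a correlation above 0.8. The highest were Psmd4 (0.94), Psmd14 (0.93), Psma2 (0.93), Psmc4 (0.92), Psma1 (0.92), Psmb3 (0.92) and Psmd6 (0.92), which come from each layer of the particle. Under 0.5 were Psmd1 (0.45), the chaperones Psmd9 (0.17) and Psmd10 (0.16), and Psmc3ip (-0.19). The third chaperone gene, Psmd5, reached 0.60, and the lowest values of structural subunits after Psmd1 were 0.54 for Psmb4 and 0.56 for Psmc6. In Psmc6 a second probe set correlated with the first at 0.93, and in Psmd14 the other 2 did so at 0.96 and 0.88, whereas for Psmc4 the dimmer probe set (mean score 7.11) correlated at -0.28. Of 11 further probe sets in 7 genes, 6 correlated with the first above 0.5.

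The animals that were high or low were largely the same for all 3 groups. In sugar mix replicate 2, all 34 members were above their mean, with a group median of 1.64 SD in the core, 1.24 in Psmc and 1.02 in Psmd, and it was the highest of the 12 animals for 17 members. In maple syrup replicate 1, 31 of 34 were above the mean (medians 0.70, 0.79 and 1.17), including all 30 structural subunits. In maple syrup replicate 3, 0 of 34 were above the mean (medians -0.90, -0.76 and -1.0), and in sugar mix replicate 6, 3 of 34 were (medians -1.30, -1.16 and -0.97). The latter was the lowest animal for 14 members. So each diet held an animal with nearly all members high and an animal with nearly all low, and the medians over all members ran from -1.22 to 1.28 with sugar mix and from -0.91 to 0.89 with maple syrup.

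**Figure D3:**
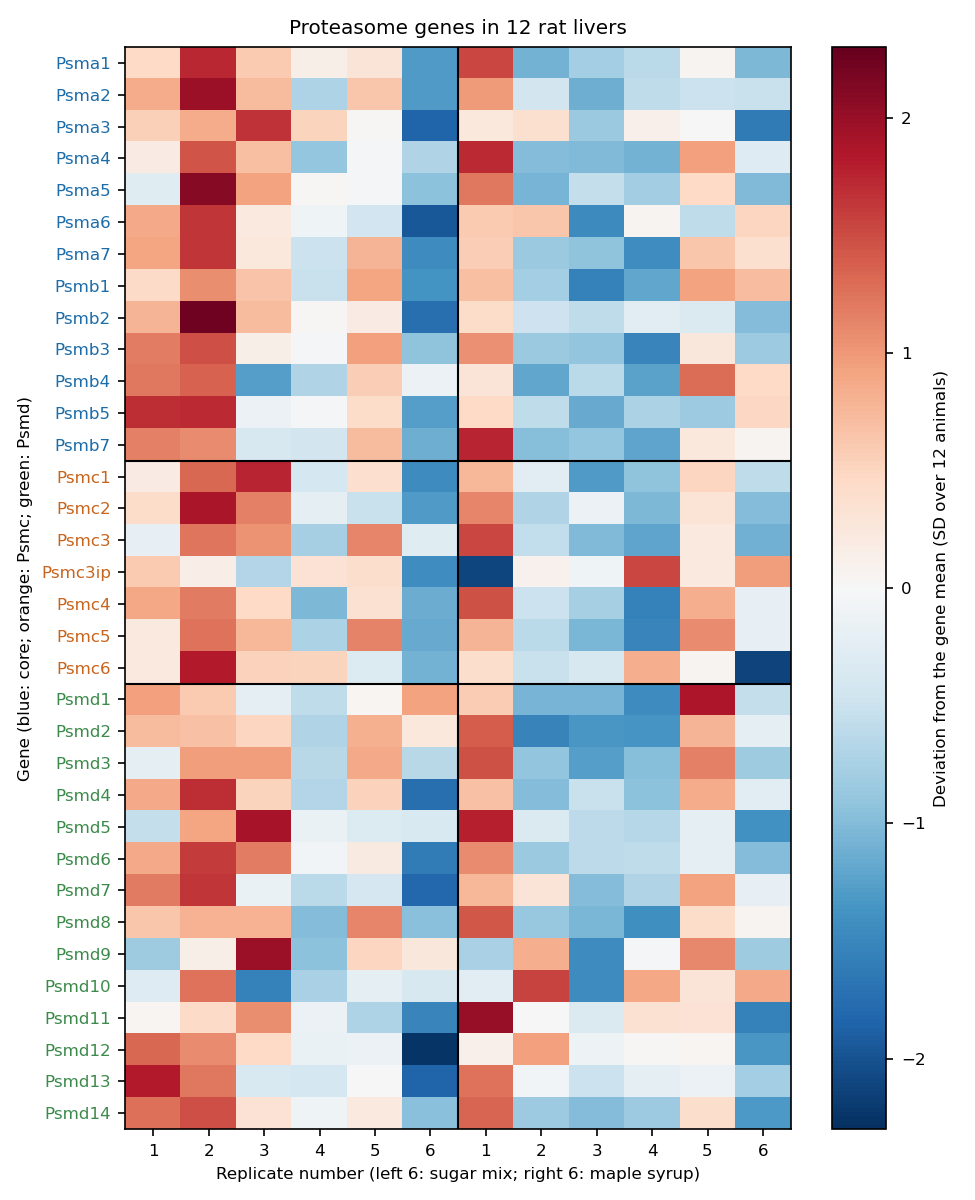
Deviation of each gene from its own mean (colour, in SDs over the 12 animals) for 34 genes (rows, ordered by group) in 6 sugar mix animals (left of the line) and 6 maple syrup animals (right). Values are on the deposited scale. Sugar mix replicate 2 and maple syrup replicate 1 are red nearly throughout, and sugar mix replicate 6 and maple syrup replicate 3 are blue.

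On the deposited scale, the 14217 genes did not all shift with the members. In sugar mix replicate 2, 56.4% of all genes were above their mean, and in maple syrup replicate 1 51.4%. The share was 50.4% in maple syrup replicate 3 and 49.0% in sugar mix replicate 6. How the animals stood after another scaling of the arrays was not computed. Other measures moved with the members in part. The array's own beta-actin control, read by probe sets at the 5′ end, the middle and the 3′ end of the transcript, stood at 1.48, 1.56 and 1.92 in sugar mix replicate 2 and at 1.08, 0.84 and 0.94 in maple syrup replicate 1, at -1.36, -1.28 and -1.53 in maple syrup replicate 3, and at 0.08, 0.08 and 0.36 in sugar mix replicate 6. The GAPDH control was at 1.24, 1.23 and 1.24, then 1.13, 1.09 and 1.02, then -1.59, -1.32 and -1.44, and -0.16, 0.08 and -0.08 in the same animals. In sugar mix replicate 6, where the proteasome genes were low, neither of these controls was. In maple syrup replicate 4, where 7 of 34 members were above their mean, beta-actin was at -1.27, -1.53 and -1.53 and GAPDH at -0.22, -0.56 and -0.13. The hexokinase control did not follow the proteasome genes: it was at -2.01, -0.40 and -0.85 in sugar mix replicate 2, at 0.44, -1.38 and -0.58 in maple syrup replicate 1, and at -1.56, -0.51 and -0.91 in maple syrup replicate 3. It stood at -0.25, 1.13 and 0.11 in sugar mix replicate 6 and at 0.93, 1.99 and 0.38 in maple syrup replicate 4. Whether RNA quality, loading or labelling had a part in the pattern was not tested.

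**Figure D4:**
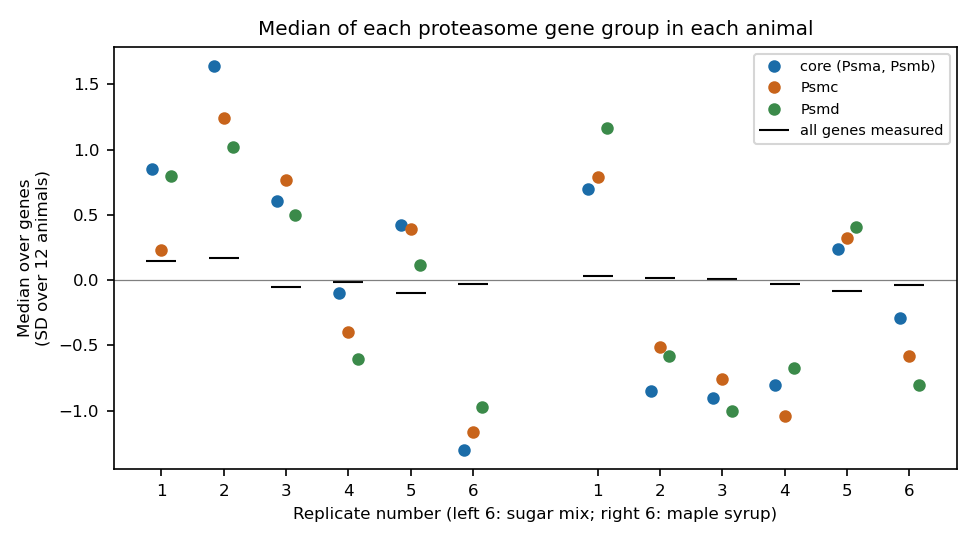
Median deviation from the gene mean (y axis, in SDs over 12 animals) of the core, Psmc and Psmd genes in each animal (x axis, by diet and replicate number), with the median of all 14217 genes as a dash. The 3 groups lie on the same side of 0 in each animal, from -1.30 to 1.64, while the dashes stay between -0.10 and 0.17.

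Markers of cell types were checked on the same scale. Of 8 measured markers of Kupffer cells and macrophages, 7 had a lower mean with maple syrup (median g = -0.70, 0 passed the test), and their mean deviation ran from -0.20 to 0.96 with sugar mix and from -1.41 to 0.77 with maple syrup. It was 0.96 in sugar mix replicate 2, 0.62 in maple syrup replicate 1, -1.21 in maple syrup replicate 3 and -0.20 in sugar mix replicate 6, and the markers' median correlation with the mean of the proteasome genes within diets was 0.51. No defining marker of these cells among the 8 is at 0, as the score has no zero. Their part in the pattern was not tested. For the 9 measured hepatocyte markers the median correlation was 0.18 (4 lower, 5 higher), and over the remaining 7 marker lists it ran from -0.44 (erythroid cells) to 0.34 (B and plasma cells). Immediate early and heat shock genes, which respond to tissue handling, had 7 of 9 lower and a median correlation of 0.09.

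Of the other genes of the pathway, 40 of 47 on a written list were measured, 22 with a lower and 18 with a higher mean with maple syrup, and 0 passed the test. The 3 immunoproteasome genes, which interferon induces, were lower with maple syrup (Psmb9 g = -0.95, Psmb10 -0.90, Psmb8 -0.81), and their mean deviation was 2.70 in sugar mix replicate 2. They shared that animal with the constitutive genes, but not maple syrup replicates 1 and 3. In maple syrup replicate 1, where 31 of 34 constitutive genes were high, the mean deviation was -0.52. In maple syrup replicate 3, where all were low, it was 0.27. In sugar mix replicate 6, where 3 of 34 were above their mean, it was -0.25. The correlation with the mean of the constitutive genes was 0.66 for Psmb10, 0.42 for Psmb8 and 0.23 for Psmb9. Without sugar mix replicate 2, g was -0.81 for Psmb9, -1.03 for Psmb10 and -0.61 for Psmb8. The 4 measured genes of activators and the inhibitor had a lower mean with maple syrup, and 3 of them were highest in 1 animal. Psme1, Psme2 and Psmf1 stood at 2.72, 2.84 and 2.31 in sugar mix replicate 2, and without it their g was -0.33, -0.08 and -0.09. Psme1 and Psme2, which form the cap that interferon induces, had g = -0.64 and -0.51 and correlations of 0.36 and 0.27. Psmf1, an inhibitor of the core, had g = -0.44 and a correlation of 0.67, and Psme4, which encodes another cap, -0.38 and -0.05.

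Usp14, a deubiquitinase that binds the base of the cap, was closest of all 14183 other genes to the proteasome genes, with a correlation of 0.94 with their mean over the 12 animals and g = -0.24 (95% interval -1.28 to 0.82). It was chosen by this rank, and 0.642% of other genes were above 0.8. The next were Zdhhc13 (0.93), a protein acyltransferase, Nmt1 (0.93), an N-myristoyltransferase, Acot4 (0.93), an acyl-CoA thioesterase, and Stard3nl (0.92). Rheb (0.91), a GTPase of the mTOR pathway, Ppp2ca (0.91), a catalytic subunit of protein phosphatase, Cd200r1l (0.91), Dip2a (0.90) and Acot1 (0.90), another thioesterase, completed the first 10. They share the 12 arrays with the members.

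Partners of the proteasome were less like the members. The median correlation of the 40 measured genes of the pathway was 0.25, against 0.01 over all 14183 genes that are no members. Adrm1, a ubiquitin receptor of the cap, reached 0.60, and Uchl5, the deubiquitinase that it binds, 0.15. Sem1, a small subunit of the lid whose symbol lies outside the rule, was at 0.01. Among assembly chaperones, Psmg1 reached 0.55, Psmg2 0.44, Pomp 0.06 and Psmg4 -0.52. Vcp, the segregase that pulls ubiquitin-tagged proteins apart before they reach the proteasome, was at 0.13. Of its measured cofactors, Ufd1 was at 0.81, Nsfl1c at 0.79, Nploc4 at 0.47 and Faf2 at 0.45. Faf1 was at -0.19 and Ubxn1 at -0.30. Nfe2l1, the transcription factor known to drive proteasome genes, was at 0.16 and Nfe2l2 at 0.02, and Ddi2, the protease known to activate Nfe2l1, at -0.78. Foxo4 alone of the 40 had an unadjusted p under 0.05 in limma (g = -1.39, 5 of 36 pairs, adjusted p = 0.9999), where 4.33% of all genes did.

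**Figure D5:**
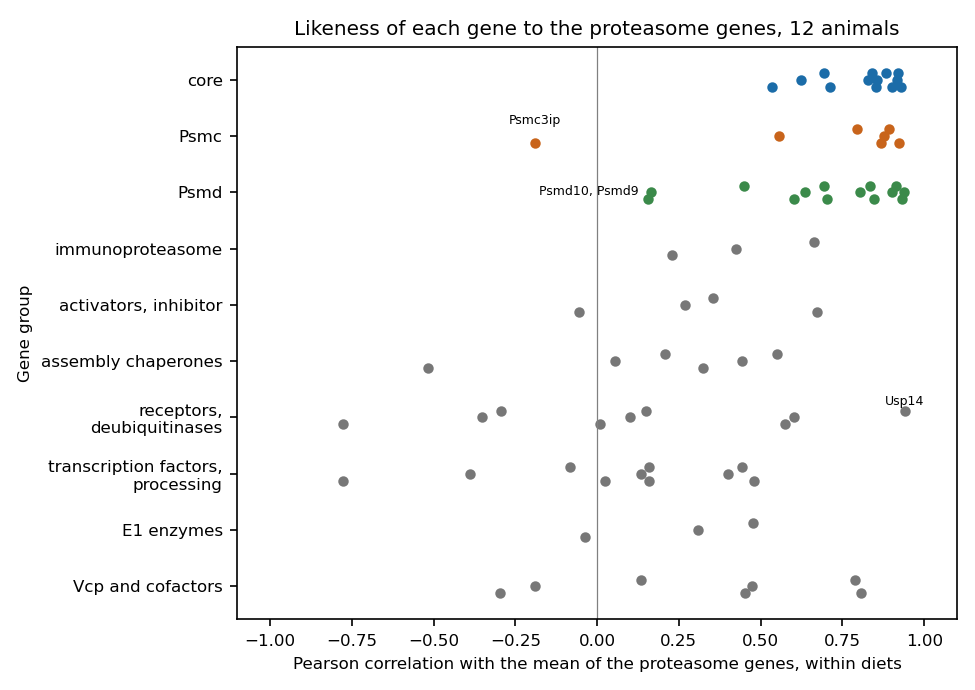
Pearson correlation within diets over 12 animals (x axis) of each gene with the mean of the proteasome genes (for a member, of the other members), by gene group (y axis). Ddi2 and Vcp stand in more than 1 group. Most core, Psmc and Psmd genes lie above 0.5, 4 of them, Psmc3ip (-0.19), Psmd10 (0.16), Psmd9 (0.17) and the structural subunit Psmd1 (0.45), do not, and Usp14 (0.94) is the closest of the others.

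For the rat, RefSeq (GRCr8) lists 34 pseudogene entries named after 14 of the 34 members. Whether a probe set also binds RNA of such a pseudogene was not tested.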

How the data were processed

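The authors deposited a score for each of 31099 probe sets on 12 arrays (0 missing), made per the labels from biotin-labelled cRNA of liver on Affymetrix arrays. How the scores were summarized and normalized is not given in the sources used here. Groups follow the labels, which name no batch. Platform annotation, updated through RefSeq's genes, gave 1 symbol to 20832 probe sets, several to 436 and none to 9831. The brightest probe set by mean stood for each of 14217 genes, and 7 members had more than 1. No low values were filtered out, and all 34 members were above the lowest 30% of genes.

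Diets were compared over all genes with limma 3.58.1 in R 4.3.3 (lmFit, trended eBayes, two-sided, 0.05 after Benjamini-Hochberg adjustment). The design had assumed log2 values and its test was kept. Intervals of g come from the noncentral t distribution (scipy 1.17.1). Figures were drawn with matplotlib 3.10.9. The test was tried on simulated data. The members and gene lists were chosen with earlier results of these data known. Named were the members of set roles and, in each family, those with the 2 smallest and the largest p. Alternatives were other scalings, probe set rules, variance models, array weights, a filter on low values, ranks, the replicate block and single arrays left out. Centring in SD units and leaving out sugar mix replicates 2 and 6 were added after seeing the data, as was leaving out sugar mix replicate 2 for the immunoproteasome, activator and inhibitor genes.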

Additional observations from a re-analysis of the deposited data

Results flagged for a closer look

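In 5 of 68 combinations of a gene and a diet, a single animal was separated by a wide gap from the remaining 5 on that diet. By chance about 1 in 20 such combinations, or 3.4, would be. In 4 of them it was maple syrup replicate 1, as the highest animal of that diet: Psma2 at 0.98, Psmd5 at 1.78, Psmd6 at 1.09 and Psmd13 at 1.25 SD from the gene's mean over the 12 animals. In sugar mix, Psmd2 stood at -0.69 in replicate 4, the lowest of that diet. The members vary together, so these are not 5 independent events.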

How the results depend on the processing

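No member passed in any of the settings in which the diets were tested. In counts, the lower members were 11 of 34 under median centring (6 core, 2 Psmc, 3 Psmd) and 6 of 20 under quantile normalization (2, 2 and 2), against 30; elsewhere the count lay between 26 and 33 with single arrays left out. The median g of the members became 0.04 under median centring, against 0.18 over all genes. Under quantile normalization it became 0.18, against -0.15 over all genes. Array medians differ by more than the SD of each member. Dividing each gene by its SD, or centring in SD units, called 24 genes in each case and 0 members. Both settings make the spread of all genes the same, or nearly so, before limma estimates it. The smallest adjusted p in limma over all genes went from 0.43 to 2.6e-11 and 1.4e-11. These 24 calls are therefore not read as diet differences. At an unadjusted p of 0.05 in limma, 5 of 34 members passed without sugar mix replicate 6 (6.10% of all genes) and 4 without maple syrup replicate 1 (5.14%). Only 1 member passed under quantile normalization (of 20, 4.44% of all genes), with the mean of all probe sets (3.99%) and with the dimmest probe set (3.97%). The same count was found with the replicate block (4.56%) and without maple syrup replicate 5 (4.16%). The median correlation was 0.95 under median centring (core 0.96, Psmc 0.94, Psmd 0.94, core with Psmc 0.95, core with Psmd 0.95, Psmc with Psmd 0.93). Under quantile normalization it was 0 over all members, -0.065 in core, 0.16 in Psmc, 0.0871 in Psmd, 0 for core with Psmc, 0.0332 for core with Psmd and -0.0943 for Psmc with Psmd. Without sugar mix replicates 2 and 6 the Psmc median was 0.42. Of 24 named members, the sign of g turned under median centring for Psmc3 (0.0897), Psmd12 (0.0348), Psmd1 (0.0652), Psmc5 (0.0475), Psmc4 (0.0536), Psmc1 (0.0125), Psmd4 (0.12), Psmb5 (0.00972), Psmb4 (0.13), Psma7 (0.0987), Psma6 (0.17) and Psmb7 (0.14). Under quantile normalization it turned for Psmc3 (0.53), Psmd4 (0.0635), Psmc3ip (-0.54), Psmb3 (0.53), Psmc6 (0.29), Psmd1 (0.40), Psmd2 (0.33) and Psma3 (0.13). It also turned for Psmd11 in the dimmest probe set (-0.28), and for Psmd7 with ranks (-0.12) and array weights (-0.0918). With single arrays left out it ran from -0.53 to 0.23 for Psma6, -0.0815 to 0.79 for Psmc3ip, -0.54 to 0.0532 for Psmc4, -0.11 to 0.62 for Psmd11, -0.74 to 0.14 for Psmd12 and -0.33 to 0.36 for Psmd7. The replicate block called 0 members and left 30 of 34 lower (median g = -0.43). Same-numbered animals are not stated to be paired, and their deviations correlated between -0.03 and 0.12. The cause of these changes was otherwise not tested.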

Other observations

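Genes of other routes of protein breakdown were split between the directions. Of 8 measured genes of muscle-type ubiquitin ligases and autophagy, 4 had a lower and 4 a higher mean with maple syrup (median g = -0.0082), and 0 passed limma at an adjusted p of 0.05 (0 also at an unadjusted p of 0.05). Sqstm1, the receptor that carries ubiquitin-tagged proteins into autophagosomes, was higher with maple syrup in 30 of 36 pairs, with g = 0.87 (95% interval -0.26 to 1.96). Its correlation with the mean of the proteasome genes within diets was 0.28. Gabarapl1, a protein of the autophagosome membrane, had g = 0.62 (95% interval -0.47 to 1.68) and a correlation of -0.60. Sqstm1 and Gabarapl1 had the highest g of the list and are named for it. The other higher genes were Trim63 (g = 0.52, 26 of 36 pairs) and Becn1 (0.15). The 4 lower genes were Atg7 (g = -0.37), Ulk1 (-0.35), Atg5 (-0.32) and Fbxo32 (-0.17). The list's median correlation was -0.03. Whether the list differs from the proteasome genes was not tested.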
